A study of Homo sapiens with 12 samples.

Results

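The response of ovarian cancer cells to cisplatin was compared between cells transfected with an shRNA against IRF-1 and cells transfected with a scrambled shRNA. The quantity reported is the difference of responses: the CDDP response on arrays labelled shIRF1 minus the CDDP response under shCTRL, on log2 normalized signals, for each probe. A negative difference means that a transcript ended lower, relative to its own untreated group, on arrays labelled shIRF1 than under shCTRL. All 12 arrays of the series entered, in 4 groups of 3. The groups are shIRF1 CDDP (shRNA against IRF-1 and 24 hours of CDDP), shIRF1 (the same shRNA without CDDP), shCTRL CDDP (scrambled shRNA and 24 hours of CDDP) and shCTRL (scrambled shRNA without CDDP). Probes were taken when their detection p-value, the chance of such a signal among the negative controls of the array, was under 0.05 on all 12 arrays. This held for 13298 of the 47313 probes (28.1%), so that no group of a tested probe sat at background. They covered 8740 named genes, and 2263 of the probes are unnamed here.

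All cells were SK-OV-3, an established human ovarian cancer line that is known to lack functional p53, so every group shares that background. The dose and vehicle of CDDP, the shRNA sequence, and whether transfection was transient or stable are not given in the sources used here. Whether the 3 samples of a group were separate cultures is not stated in the labels, so the spread behind each p-value may be technical.

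CDDP (cisplatin) is a platinum drug that crosslinks DNA, which blocks replication and transcription and sets off damage signalling, cell cycle arrest and death. IRF-1 is a transcription factor that is induced by interferon and by stress. It binds repeats of the letters GAAA in promoters, and genes of antiviral defence and of antigen presentation are among those described as its targets. A difference of responses compares drug effects and is not the same as a difference between the shRNA labels in level.

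Between 18075 and 21126 probes were detected per array (38.2% to 44.7% of all), with a mean signal of 259 to 388. Arrays of a group correlated at r = 0.964 to 0.985 across the tested probes, and arrays of different groups at 0.882 to 0.974. Of 11 epithelial ovarian markers, 9 were detected on all 12 arrays, KRT18 was detected on 11 and WT1 on 3. Their summed linear signal was 11329 to 14644 on shIRF1 CDDP arrays and 19122 to 23808 on shIRF1 arrays, against 12156 to 14436 on shCTRL CDDP arrays and 19673 to 22799 on shCTRL arrays. Of their 14 tested probes, 9 fell with CDDP on arrays labelled shIRF1 (14.4% of all probes) and 5 under shCTRL (17.4%). Their median response was -0.94 on arrays labelled shIRF1 and -0.29 under shCTRL, with a median difference of -0.11 and no call. Among the leukocyte markers with a probe, PTPRC and CD3E were detected on no array, LYZ on 2, CD14 on 10 and CD68 on 12. Their summed linear signal was 456 to 632 on shIRF1 CDDP arrays and 427 to 514 on shIRF1 arrays, against 833 to 951 on shCTRL CDDP arrays and 699 to 779 on shCTRL arrays, and the median difference of the 2 tested CD68 probes was 0.02. Among endothelial markers VWF, CDH5 and KDR were detected on no array and PECAM1 on 3. Among fibroblast markers COL3A1 was detected on no array, DCN and PDGFRA on 2, COL1A2 on 4, LUM on 9 and COL1A1 on 12. The difference of COL1A1 was 0.71 (limma unadjusted p = 0.0463, adjusted p = 0.556). The part of these markers in the results below was not tested. In bulk samples like these, fewer cells of a type and less RNA per cell cannot be told apart.

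The letters that IRF factors bind were looked up in promoters, because genes described as IRF-1 targets form a main group of this comparison. The search used GAAA, any 2 bases and GAAA again, on either strand and with overlapping matches, in the 250 bases before the start of each gene in RefSeq promoters of GRCh38.p14. It was found in 1014 of 27305 promoters (3.71%) and in 235 of 7217 promoters of tested genes (3.26%). Among tested interferon-stimulated genes 17 of 27 promoters held it (63.0%), and among tested genes described as IRF-1 targets 6 of 13 did (46.2%). It was in 15 of 402 promoters of genes with a negative difference at an unadjusted p under 0.05 (3.73%) and in 18 of 369 with a positive one (4.88%). Of the called genes, 3 had a promoter available (AKAP19, IER5L and TSC22D3) and 0 held the motif, nor did the promoters of IRF1, TRIM21 and PSMB8. No promoter was available for the called genes IFIT2 and F2R, so the motif was not looked up in them. The windows of BST2, ISG20 and IFIH1, whose differences were negative and did not pass, are shown as examples of the motif, which is in capitals. A match is a run of letters and not a measured binding site.
BST2 (chr19:17405705-17405800, minus strand): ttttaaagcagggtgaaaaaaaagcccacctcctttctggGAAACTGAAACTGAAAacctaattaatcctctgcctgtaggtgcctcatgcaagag
ISG20 (chr15:88638907-88638996, plus strand): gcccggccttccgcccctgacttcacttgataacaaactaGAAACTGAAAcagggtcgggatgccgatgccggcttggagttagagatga
IFIH1 (chr2:162318685-162318883, minus strand): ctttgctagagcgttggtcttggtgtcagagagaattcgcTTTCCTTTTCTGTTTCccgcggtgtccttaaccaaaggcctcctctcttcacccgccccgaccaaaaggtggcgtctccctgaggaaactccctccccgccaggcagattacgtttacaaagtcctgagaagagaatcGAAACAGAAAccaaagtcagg

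IRF1, the gene the shRNA is labelled against, had log2 levels of 8.94, 9.08 and 9.26 on arrays labelled shIRF1 CDDP and 8.59, 8.14 and 8.20 on arrays labelled shIRF1, against 9.97, 10.38 and 9.38 on shCTRL CDDP arrays and 8.30, 8.51 and 7.84 on shCTRL arrays. With CDDP the arrays labelled shIRF1 all lay below the shCTRL arrays, and without CDDP the groups overlapped. The difference between the labels was 0.10 without CDDP (SE 0.24, limma adjusted p = 0.878) and -0.82 with CDDP (SE 0.24, limma adjusted p = 0.0655). A lower IRF1 level on untreated arrays labelled shIRF1 was therefore not detected, and every direction below rests on the labels. IRF1 rose with CDDP by 0.78 on arrays labelled shIRF1 (SE 0.24, limma adjusted p = 0.0255) and by 1.70 under shCTRL (SE 0.24, limma adjusted p = 1.17e-04). The difference of these responses was -0.92 (SE 0.34, 95% confidence interval -1.65 to -0.18, limma unadjusted p = 0.0186) and did not pass after Benjamini-Hochberg adjustment over the 13298 probes (adjusted p = 0.483, 0.298 to 1 over 23 alternatives).

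Across probes, the responses to CDDP were alike in direction and large, and few probes differed between them beyond the spread of the arrays. CDDP changed 4012 probes on arrays labelled shIRF1 (30.2%), of which 2099 rose and 1913 fell, and 4851 probes under shCTRL (36.5%), of which 2533 rose and 2318 fell. Median scaling in place of quantile normalization left 1856 and 2672 probes in the same order, and rises made up 38.4% of the calls under shCTRL, against 52.2% with quantile normalization. Both responses were called with the same sign for 3072 probes and with opposite signs for 11. Across probes, which are not independent replicates, the responses correlated at r = 0.853, with an SD of 0.65 on arrays labelled shIRF1 and 0.72 under shCTRL. A further 929 probes were called on arrays labelled shIRF1 alone and 1768 under shCTRL alone, but the difference itself was called for 4 of those. A call under a single label thus did not show a difference between labels.

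The difference of responses was called for 7 of 13298 probes (0.0526%), 2 positive (0.015%) and 5 negative (0.0376%), at a limma p adjusted by Benjamini-Hochberg under 0.05. At an unadjusted p under 0.05 there were 1170 probes (8.8%), 554 positive (4.17%) and 616 negative (4.63%), and 59 were under 0.001. Differences of single probes ran from -0.59 at the 5th to 0.63 at the 95th percentile, with a median of 0.01. The median SE of a difference was 0.28 on the log2 scale, so most of this range was too small to be resolved with 3 arrays a group.

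**Figure D1:**
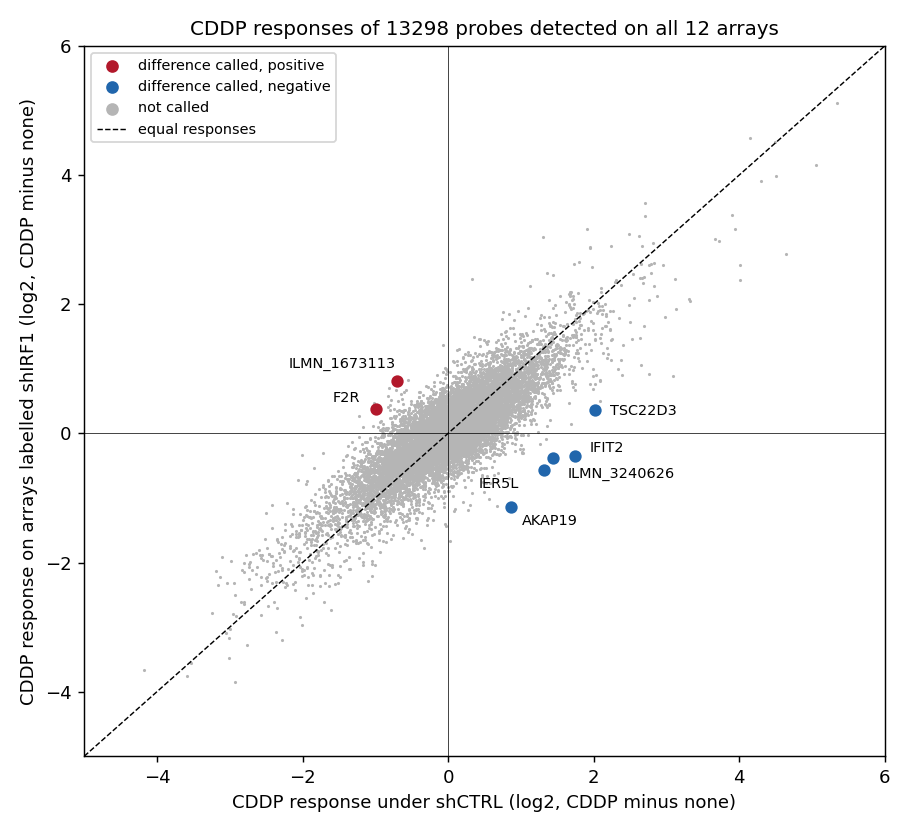
Each point is 1 of the 13298 probes, with its CDDP response under shCTRL across and its response on arrays labelled shIRF1 upwards (both log2, CDDP minus none, means of 3 arrays). The cloud follows the dashed line of equal responses (r = 0.853), the 5 negative calls lie below it to the right and the 2 positive calls above it to the left.

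The 5 negative calls were IFIT2, AKAP19, IER5L, TSC22D3 and an unnamed probe. All 5 shared a pattern: they were higher on arrays labelled shIRF1 before the drug, and CDDP raised them under shCTRL. No rise was called on arrays labelled shIRF1, where the response was above 0 for TSC22D3 alone. IFIT2, on chromosome 10, encodes an interferon-induced RNA-binding antiviral protein. Its log2 level was 5.76, 5.67 and 5.92 on arrays labelled shIRF1 CDDP and 6.23, 5.74 and 6.42 on arrays labelled shIRF1, against 7.20, 7.0 and 6.71 on shCTRL CDDP arrays and 5.53, 4.93 and 5.22 on shCTRL arrays. The groups with and without CDDP overlapped on arrays labelled shIRF1, and under shCTRL every CDDP array was above every untreated array. IFIT2 rose by 1.74 under shCTRL (SE 0.21, limma adjusted p = 2.70e-05), while its response on arrays labelled shIRF1 was -0.35 (SE 0.21, limma adjusted p = 0.23). The difference was -2.09, a 4.27-fold gap between the responses (SE 0.30, interval -2.73 to -1.46, limma adjusted p = 0.0161). This was the dimmest of the 7 probes, with a detection p-value of up to 0.0468 on an array, close to the limit for being taken.

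AKAP19, on chromosome 2, encodes a small anchoring protein for protein kinase A. Its log2 level was 6.39, 6.90 and 6.60 on arrays labelled shIRF1 CDDP and 7.99, 7.63 and 7.68 on arrays labelled shIRF1, against 6.85, 7.42 and 7.43 on shCTRL CDDP arrays and 6.23, 6.28 and 6.61 on shCTRL arrays. The arrays did not overlap within either label, and they moved in opposite directions. AKAP19 fell by 1.14 on arrays labelled shIRF1 (SE 0.20, limma adjusted p = 7.65e-04) and rose by 0.86 under shCTRL (SE 0.20, limma adjusted p = 0.00429). The difference was -2.0 (SE 0.28, interval -2.61 to -1.38, limma adjusted p = 0.0161), or 3.99-fold.

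IER5L, on chromosome 9, is a relative of the immediate early gene IER5. Its log2 level was 8.42, 8.34 and 7.93 on arrays labelled shIRF1 CDDP and 9.03, 8.76 and 8.59 on arrays labelled shIRF1, against 8.79, 8.83 and 8.41 on shCTRL CDDP arrays and 7.33, 7.49 and 7.27 on shCTRL arrays. It too moved in opposite directions, with no overlap within either label. IER5L fell by 0.56 on arrays labelled shIRF1 (SE 0.18, limma adjusted p = 0.0323) and rose by 1.31 under shCTRL (SE 0.18, limma adjusted p = 9.92e-05). The difference was -1.88 (SE 0.26, interval -2.44 to -1.32, limma adjusted p = 0.0161).

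TSC22D3, on the X chromosome, encodes the glucocorticoid-induced leucine zipper protein. Its log2 level was 9.02, 9.18 and 8.94 on arrays labelled shIRF1 CDDP and 8.97, 8.5 and 8.59 on arrays labelled shIRF1, against 9.88, 9.83 and 10.05 on shCTRL CDDP arrays and 8.0, 7.80 and 7.89 on shCTRL arrays. The shCTRL groups lay far apart, and the groups labelled shIRF1 overlapped. TSC22D3 rose by 2.02 under shCTRL, 4.06-fold (SE 0.16, limma adjusted p = 1.01e-06). Its response on arrays labelled shIRF1 was 0.36 (SE 0.16, interval 0.02 to 0.71, limma adjusted p = 0.108). The difference was -1.66 (SE 0.23, interval -2.15 to -1.17, limma adjusted p = 0.0161). A further probe of TSC22D3, ILMN_2376403, gave -1.25 with the same sign and did not pass (limma adjusted p = 0.424). Its response was 0.77 on arrays labelled shIRF1 and 2.02 under shCTRL.

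The unnamed probe ILMN_3240626 had the smallest p of all 13298 probes. Its log2 level was 7.15, 7.21 and 7.12 on arrays labelled shIRF1 CDDP and 7.41, 7.59 and 7.61 on arrays labelled shIRF1, against 8.04, 7.66 and 8.09 on shCTRL CDDP arrays and 6.52, 6.37 and 6.57 on shCTRL arrays. No group overlapped another on this probe. The difference was -1.82 (SE 0.22, interval -2.29 to -1.35, limma adjusted p = 0.012), from a rise of 1.44 under shCTRL (limma adjusted p = 1.07e-05) and a response of -0.38 on arrays labelled shIRF1 (limma adjusted p = 0.0834).

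The 2 positive calls showed the mirror pattern, with a fall under CDDP in shCTRL cells that was not seen on arrays labelled shIRF1. F2R, on chromosome 5, encodes the thrombin receptor PAR1. Its log2 level was 8.52, 8.54 and 8.51 on arrays labelled shIRF1 CDDP and 8.17, 8.04 and 8.24 on arrays labelled shIRF1, against 7.98, 8.27 and 7.97 on shCTRL CDDP arrays and 8.99, 9.0 and 9.19 on shCTRL arrays. F2R fell by 0.99 under shCTRL (SE 0.15, limma adjusted p = 1.5e-04), and its response on arrays labelled shIRF1 was 0.37 (SE 0.15, limma adjusted p = 0.0706). The difference was 1.36 (SE 0.21, interval 0.92 to 1.80, limma adjusted p = 0.0237). The other probe of F2R that was detected on all arrays, ILMN_2221507, gave 0.12 (limma unadjusted p = 0.554), so the 2 probes of this gene disagree.

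The unnamed probe ILMN_1673113 had log2 levels of 10.36, 10.10 and 10.23 on arrays labelled shIRF1 CDDP and 9.49, 9.35 and 9.39 on arrays labelled shIRF1, against 9.06, 8.97 and 9.38 on shCTRL CDDP arrays and 9.81, 9.67 and 10.03 on shCTRL arrays. It rose by 0.82 on arrays labelled shIRF1 (limma adjusted p = 0.0016) and fell by 0.70 under shCTRL (limma adjusted p = 0.0037), with no overlap within either label. The difference was 1.52 (SE 0.23, interval 1.03 to 2.01, limma adjusted p = 0.0225).

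Set against each other by label, 6 of the 7 probes differed before the drug and 4 with it, where 7.47% (3.62% higher and 3.85% lower) and 5.35% (2.26% higher and 3.09% lower) of all probes did. These comparisons share the arrays of the difference and are given as its parts. The difference is the gap between labels with CDDP minus the gap without it. Probes picked by it therefore tend to have large gaps, and the shares of all probes do not test them. Without CDDP the 5 negative calls were higher on arrays labelled shIRF1 by 0.79 (TSC22D3) to 1.43 (IER5L), and F2R was lower there by 0.91. With CDDP, IFIT2 was lower on arrays labelled shIRF1 by 1.19 (limma adjusted p = 0.00491), TSC22D3 by 0.87 (0.00632) and ILMN_3240626 by 0.77 (0.0113), and ILMN_1673113 was higher by 1.09 (0.00127). The sign of the gap between labels was opposite with and without the drug for each of the 7, which their selection favours. The gap passed on both sides for IFIT2, TSC22D3 and ILMN_3240626.

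The number of probes called changed when 1 array was left out. Such a fit also has fewer arrays in a group, and the part of either was not tested. Leaving out 1 array gave 2, 4 and 2 calls without shIRF1 CDDP array 1, 2 and 3, and 1, 10 and 6 without shIRF1 array 1, 2 and 3. It gave 2, 3 and 8 calls without shCTRL CDDP array 1, 2 and 3, and 4, 0 and 1 without shCTRL array 1, 2 and 3. ILMN_3240626 kept its call in 11 of these 12 fits and lost it without shCTRL array 2 (limma adjusted p = 0.0642). TSC22D3 lost it in 6 fits, without shIRF1 CDDP array 1 or 3, shIRF1 array 1, shCTRL CDDP array 1, or shCTRL array 2 or 3. IER5L lost it in 7, without shIRF1 CDDP array 3, shIRF1 array 1, shCTRL CDDP array 1 or 2, or any shCTRL array. AKAP19 lost it in 7, without shIRF1 CDDP array 1 or 3, shIRF1 array 1, shCTRL CDDP array 2, or any shCTRL array. IFIT2 lost it in 8, without any shIRF1 CDDP array, shIRF1 array 1, shCTRL CDDP array 1 or 2, or shCTRL array 2 or 3. The highest limma adjusted p of these 4 in the 12 fits was 0.0668. ILMN_1673113 and F2R each kept the call in 1 fit, without shCTRL CDDP array 3 and array 2 in that order, and reached an adjusted p of 0.105. The sizes moved less, between -2.29 and -1.93 for IFIT2 and between 1.30 and 1.45 for F2R. With median scaling in place of quantile normalization no probe was called, and 369 had an unadjusted limma p under 0.05.

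**Figure D2:**
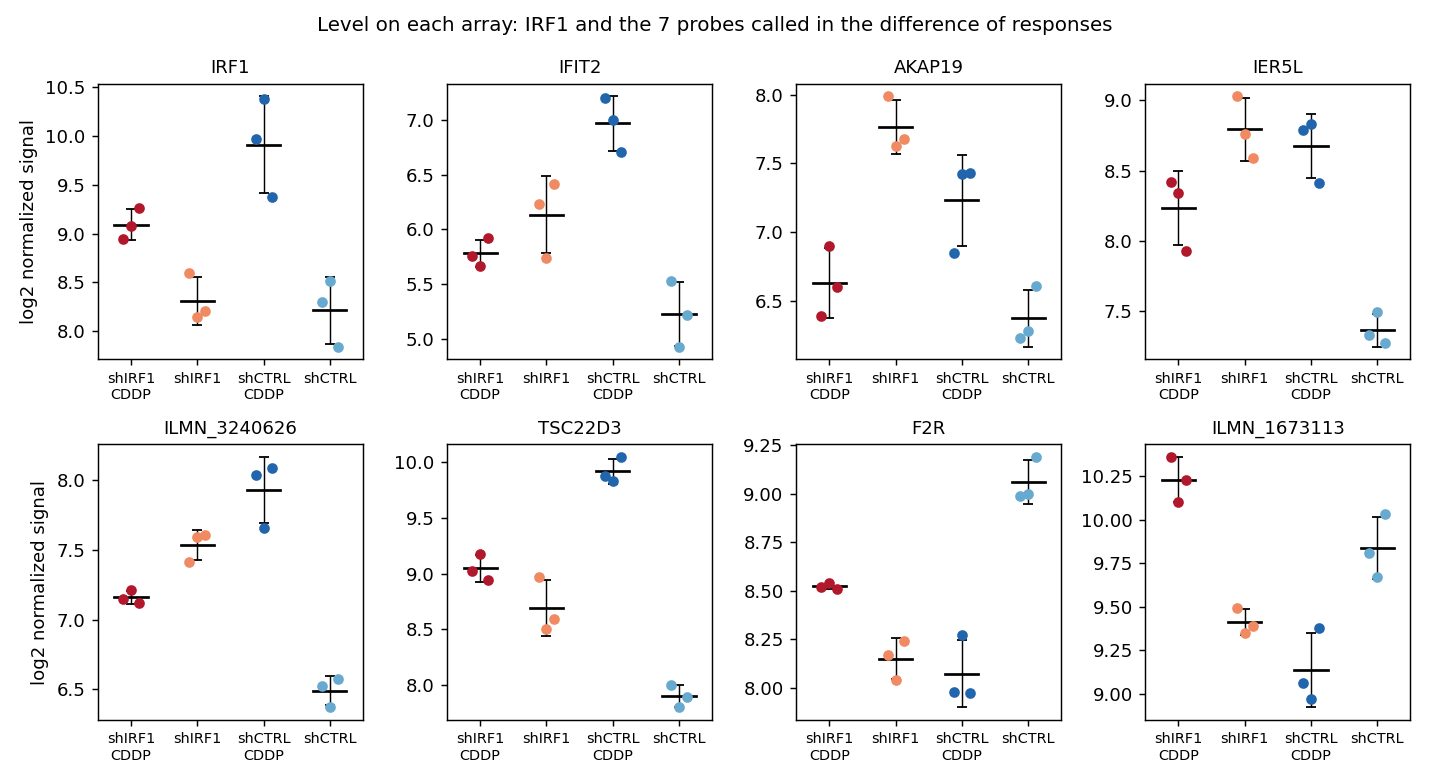
Each panel gives the log2 normalized signal of 1 probe on each of the 12 arrays (points), with the group mean (bar) and SD (whiskers, n = 3), for IRF1 and the 7 called probes. Groups run from shIRF1 CDDP on the left to shCTRL on the right; in IFIT2 the shCTRL CDDP arrays stand above all others, and in F2R the shCTRL arrays do.

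The probes next in order of p did not pass the test and are given as values. Some passed under other processing: of 23 alternatives, RPS29 was called in 10, LHPP in 6 (both with the replicate number as a block), SNORD3A in 5, ETFRF1 and RNU4-2 in 4, and DDIT4 and RNY4 in 2. RPS29, a ribosomal protein gene, had log2 levels of 9.11, 8.87 and 9.05 on arrays labelled shIRF1 CDDP and 8.29, 7.73 and 8.24 on arrays labelled shIRF1, against 9.14, 9.35 and 9.19 on shCTRL CDDP arrays and 6.98, 6.27 and 6.16 on shCTRL arrays, with a difference of -1.83 (SE 0.31, limma adjusted p = 0.0537). The other 3 probes of RPS29 detected on all arrays gave -0.10, -0.07 and 0.15, so this value belongs to 1 probe of the gene. DDIT4, which encodes an inhibitor of mTORC1 signalling, had the largest size among them. Its log2 level was 10.58, 9.95 and 10.20 on arrays labelled shIRF1 CDDP and 9.95, 8.70 and 9.40 on arrays labelled shIRF1, against 9.93, 10.21 and 9.64 on shCTRL CDDP arrays and 6.93, 7.14 and 6.45 on shCTRL arrays. DDIT4 rose under both labels, by 0.90 on arrays labelled shIRF1 (limma adjusted p = 0.0293) and by 3.09 under shCTRL (limma adjusted p = 3.06e-06), and the arrays with CDDP overlapped between labels. Its difference was -2.19 (SE 0.41, limma adjusted p = 0.089). LHPP, a histidine phosphatase gene, had -1.69 (SE 0.31) and ETFRF1, a regulator of mitochondrial electron transfer flavoprotein, -1.27 (SE 0.23), each with a limma adjusted p of 0.089.

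On the positive side, TIAM2, which encodes an activator of the GTPase RAC, had 1.31 (SE 0.25, limma adjusted p = 0.089), RAPH1, which encodes the actin regulator lamellipodin, 1.39 (SE 0.28), and the unnamed probe ILMN_2334531 1.44 (SE 0.32). P2RY2, a receptor for extracellular ATP and UTP, had 1.01 (SE 0.22) and ADORA2B, an adenosine receptor, 1.16 (SE 0.25). SGK1, a serum and glucocorticoid-regulated kinase, had log2 levels of 10.14, 10.27 and 9.88 on arrays labelled shIRF1 CDDP and 6.71, 7.33 and 6.77 on arrays labelled shIRF1, against 11.08, 11.29 and 11.40 on shCTRL CDDP arrays and 9.46, 9.15 and 9.44 on shCTRL arrays. SGK1 started 2.41 lower on the untreated arrays labelled shIRF1 and rose under both labels, by 3.16 there and by 1.91 under shCTRL. Its difference was 1.25 (SE 0.27, limma adjusted p = 0.162), and its other 2 probes detected on all arrays gave 0.93 on either.

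Opposite movement was rare. Of the 11 probes whose responses were called with opposite signs, 7 had a negative difference (AKAP19, IER5L, RNY4, SNORD3A, NUDT18, ETFRF1 and CNN3-DT) and 4 a positive one (ILMN_1673113, RAPH1, ILMN_2041190 and OR2W3). RNY4, a small RNA of the Ro ribonucleoprotein, had log2 levels of 6.26, 5.73 and 5.49 on arrays labelled shIRF1 CDDP and 6.97, 7.37 and 6.53 on arrays labelled shIRF1, against 5.79, 6.02 and 5.99 on shCTRL CDDP arrays and 5.06, 5.56 and 5.16 on shCTRL arrays. It fell by 1.13 on arrays labelled shIRF1 and rose by 0.67 under shCTRL, and the difference of -1.80 did not pass (SE 0.33, limma adjusted p = 0.089). The difference itself passed for 3 of the 11, AKAP19, IER5L and ILMN_1673113.

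Gene groups are described by counts and medians, and medians kept their sign under the 23 alternatives except where values say otherwise. Genes described as IRF-1 targets leaned to negative differences, with 1 call. Of 23 probes for 18 genes, 20 had a negative difference, against 48.7% of all probes, and the median was -0.52 (-0.66 to -0.31 over the alternatives), against 0.01 over all probes. IFIT2 was called, and 5 of the 23 (21.7%) were negative at an unadjusted p under 0.05 with none positive, against 4.63% negative in all. The others were IDO1, which degrades tryptophan (-0.89, SE 0.33), BST2, which tethers virions (-0.74, SE 0.28), the GTPase gene GBP1 (-0.73) and IRF1 itself. The other tested probe of IDO1 gave -0.58. BST2 had log2 levels of 7.85, 7.18 and 7.82 on arrays labelled shIRF1 CDDP and 8.39, 8.19 and 8.26 on arrays labelled shIRF1, against 7.23, 7.71 and 7.43 on shCTRL CDDP arrays and 7.50, 7.44 and 7.22 on shCTRL arrays. BST2 and IDO1 fell on arrays labelled shIRF1 (by 0.67 and 1.32), and both were higher there before CDDP, by 0.90 and 1.68. IFIT3, which neighbours IFIT2 in the interferon-induced family, had a difference of 0.03, and the chemokine CCL5 0.68 (SE 0.39), so its members differed among themselves.

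Interferon-stimulated genes showed a like lean with smaller values. Of 36 probes for 31 genes, 28 had a negative difference (77.8%), with a median of -0.27 (-0.36 to -0.13 over the alternatives). CDDP raised 6 and lowered 5 of these probes on arrays labelled shIRF1, where 15.8% of all probes rose and 14.4% fell, and raised 13 and lowered 0 under shCTRL, where 19% rose and 17.4% fell. IFIT2, also in this list, was the single call in the difference. At an unadjusted p under 0.05, 9 probes (25%) were negative and none positive, against 4.63% negative and 4.17% positive in all. TRIM21, a ubiquitin ligase that binds antibodies in the cytosol, had log2 levels of 6.90, 6.58 and 6.59 on arrays labelled shIRF1 CDDP and 6.58, 6.55 and 6.53 on arrays labelled shIRF1, against 7.58, 7.36 and 7.99 on shCTRL CDDP arrays and 6.61, 6.23 and 6.66 on shCTRL arrays. Every shCTRL CDDP array stood above all the others, with a difference of -1.0 (SE 0.26, limma adjusted p = 0.288).

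The genes whose promoter windows are printed above behaved unlike each other in level. IFIH1, which encodes the sensor MDA5, had log2 levels of 6.21, 6.35 and 5.99 on arrays labelled shIRF1 CDDP and 6.79, 6.60 and 6.52 on arrays labelled shIRF1, against 6.41, 6.23 and 6.35 on shCTRL CDDP arrays and 5.93, 6.0 and 5.99 on shCTRL arrays. IFIH1 fell by 0.45 on arrays labelled shIRF1 (limma adjusted p = 0.0347), its response under shCTRL was 0.36 (limma adjusted p = 0.0784), and its difference was -0.81 (SE 0.21, limma adjusted p = 0.288). ISG20, an antiviral exonuclease gene, had log2 levels of 8.33, 8.14 and 8.31 on arrays labelled shIRF1 CDDP and 8.0, 8.03 and 7.99 on arrays labelled shIRF1, against 7.47, 7.64 and 7.35 on shCTRL CDDP arrays and 6.23, 6.83 and 6.50 on shCTRL arrays. ISG20 was higher on arrays labelled shIRF1 both with and without the drug, and rose under shCTRL by 0.96 (limma adjusted p = 5.29e-04). Its difference was -0.71 (SE 0.24, limma adjusted p = 0.424). MX1, an antiviral GTPase gene, and IFI35 had differences of -0.83 and -0.82. OAS3 and EIF2AK2, which encode sensors of double-stranded RNA, had 0.41 and 0.42.

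The 9 probes of the IRF family had a median of -0.19 and none was called. IRF7, which drives type I interferon genes, rose under both labels, by 1.38 on arrays labelled shIRF1 and by 1.89 under shCTRL. Its difference was -0.51 (SE 0.28), and -0.26 on its other tested probe. IRF3 had -0.19 (SE 0.25), and IRF2BPL, a binding partner of IRF2, -0.30 (SE 0.34). The 21 probes of class I antigen presentation had a median of -0.20, with 17 negative and no call. The peptide-trimming enzyme gene ERAP2 had -0.61 (SE 0.25), while its other probe detected on all arrays gave 0.36. PSMB8, an immunoproteasome subunit, was measured by 4 probes between -0.41 and -0.12.

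**Figure D3:**
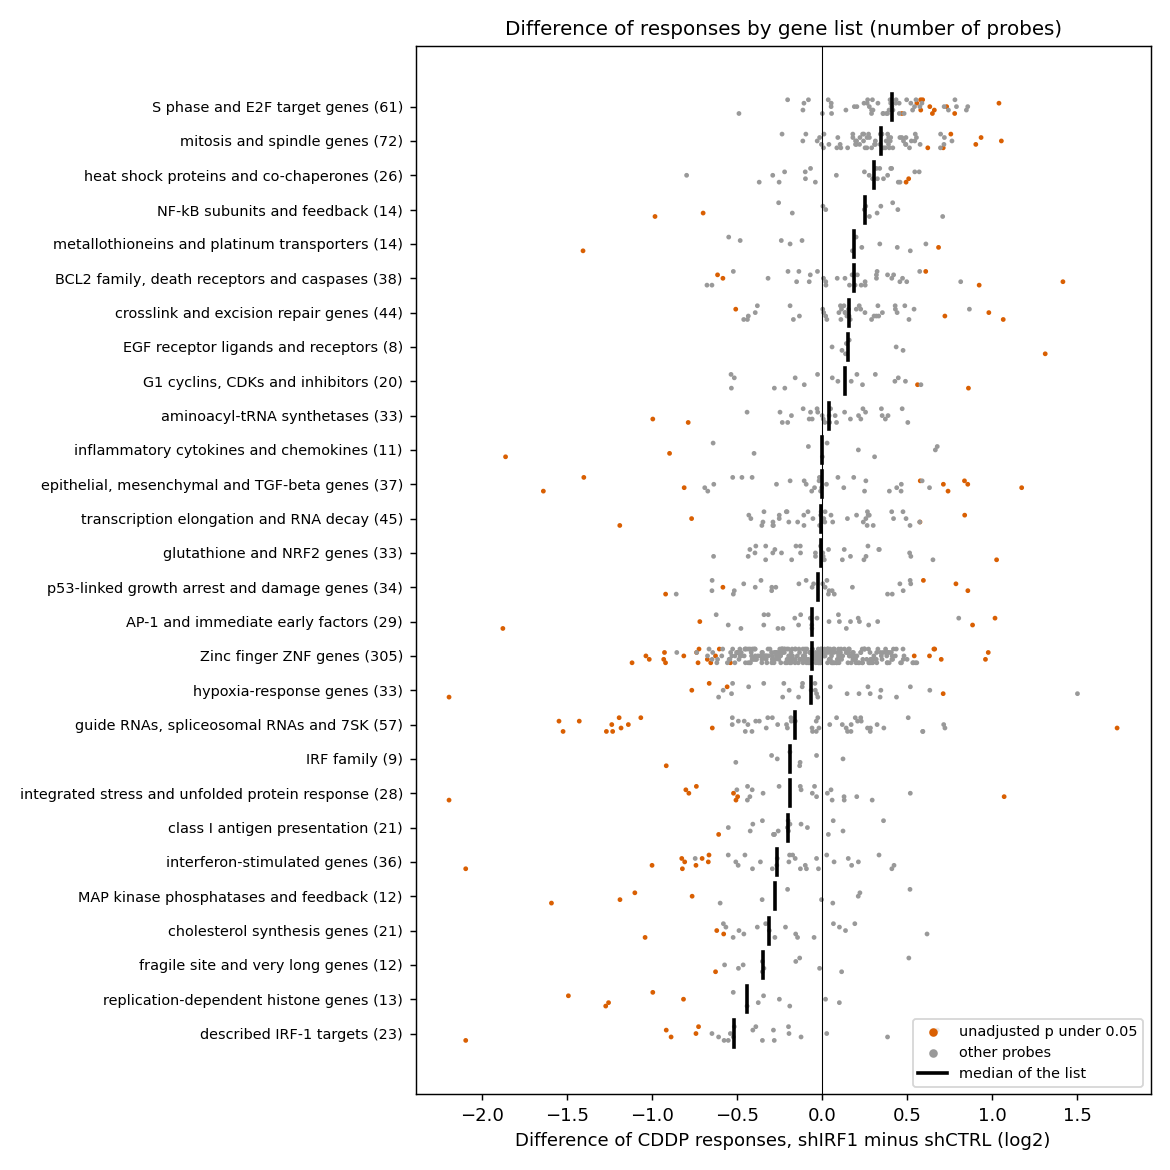
Each point is the difference of responses (log2, shIRF1 minus shCTRL) of 1 probe, in rows by gene list with the number of probes, and black bars give the median of the list. Lists run from the S phase genes at the top (median 0.41) to genes described as IRF-1 targets at the bottom (median -0.52); orange points have an unadjusted p under 0.05.

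Inflammatory genes responded under both labels, and their differences split. Of 11 probes of inflammatory cytokines and chemokines, 6 rose on arrays labelled shIRF1 and 7 under shCTRL, where 15.8% and 19% of all probes did, and 0 fell. They had a median response of 1.06 on arrays labelled shIRF1 and 1.14 under shCTRL, and a median difference near 0 whose sign changed over the alternatives (-0.45 to 0.15), with no call. CXCL2, a chemokine for neutrophils, had log2 levels of 10.73, 10.24 and 9.90 on arrays labelled shIRF1 CDDP and 8.72, 6.64 and 7.16 on arrays labelled shIRF1, against 10.63, 11.09 and 10.33 on shCTRL CDDP arrays and 6.46, 6.09 and 5.58 on shCTRL arrays. The groups with CDDP overlapped, and the untreated arrays labelled shIRF1 all lay above the shCTRL ones and were widely spread (7.51 ± 1.08, SD). The difference of -1.86 had an SE of 0.59 and did not pass (limma adjusted p = 0.406). The cytokine IL6 rose by 4.16 on arrays labelled shIRF1 and by 5.06 under shCTRL (difference -0.90, SE 0.42), and IL1A by 3.37 and 2.71 (difference 0.66, SE 0.33). Of 14 probes of NF-kB subunits and feedback genes, 10 were positive (median 0.25), but those with an unadjusted p under 0.05 were negative, namely NFKBIZ (-0.98, SE 0.38) and BCL3 (-0.70, SE 0.30), both atypical IkB proteins.

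Feedback genes of the MAP kinase pathway leaned negative. Of 12 probes, 4 (33.3%) were negative at an unadjusted p under 0.05, against 4.63% of all probes, with no call. The list median was -0.28, and 0.01 with probes detected on at least 3 arrays. DUSP6, the phosphatase of ERK, had log2 levels of 8.35, 9.0 and 8.47 on arrays labelled shIRF1 CDDP and 7.41, 7.82 and 7.43 on arrays labelled shIRF1, against 9.24, 8.94 and 9.24 on shCTRL CDDP arrays and 6.57, 6.16 and 6.76 on shCTRL arrays. DUSP6 rose under both labels, by 1.05 on arrays labelled shIRF1 and by 2.65 under shCTRL, and the shCTRL arrays started lower. The difference was -1.59 (SE 0.30, limma adjusted p = 0.089). The Sprouty genes, inhibitors of receptor tyrosine kinase signalling, had -1.19 (SPRY1, SE 0.37), -0.76 (SPRY2, SE 0.25) and -1.10 (SPRY4, SE 0.37). SPRY1 differed from the other Sprouty genes in that it fell under both labels, by 2.29 on arrays labelled shIRF1 and by 1.10 under shCTRL, with a difference of -0.60 on its other tested probe.

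Of 29 probes of AP-1 and immediate early factors, 19 rose and 1 fell on arrays labelled shIRF1 (15.8% and 14.4% of all probes), and 21 rose and 0 fell under shCTRL (19% and 17.4%), with a median difference of -0.06, which was above 0 without shCTRL CDDP array 2 or shCTRL array 1 (up to 0.02). IER5L was the call. FOS had log2 levels of 9.88, 9.88 and 9.64 on arrays labelled shIRF1 CDDP and 7.34, 7.12 and 7.74 on arrays labelled shIRF1, against 10.67, 10.57 and 10.25 on shCTRL CDDP arrays and 7.45, 7.15 and 7.53 on shCTRL arrays. Its shCTRL CDDP arrays were all above those labelled shIRF1 CDDP, and the difference was -0.72 (SE 0.27). The AP-1 member FOSL1 went the other way with 0.88 (SE 0.29), as did KLF6 with 1.02 (SE 0.40). The limma adjusted p was 0.417 to 0.503 for these 3. Ligands and receptors of the EGF receptor family had 8 probes, all positive (median 0.15). NRG1, a ligand of ERBB3 and ERBB4, fell by 1.85 under shCTRL and had a response of -0.53 on arrays labelled shIRF1 (difference 1.31, SE 0.31, limma adjusted p = 0.218). HBEGF, which rose by 4.58 on arrays labelled shIRF1 and by 4.15 under shCTRL, had 0.43 (SE 0.39).

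Genes of DNA replication leaned to positive differences. Of 61 probes of S phase and E2F target genes, 56 were positive (91.8%, against 51.3% of all probes), with a median of 0.41, and 11 (18%) were positive at an unadjusted p under 0.05 with none negative, against 4.17% positive in all. None was called. CDDP raised 40 of these probes and lowered 1 on arrays labelled shIRF1 (15.8% and 14.4% of all probes), and raised 20 and lowered 2 under shCTRL (19% and 17.4%). MCM3, a subunit of the replicative helicase, had log2 levels of 11.62, 11.78 and 11.56 on arrays labelled shIRF1 CDDP and 11.29, 11.24 and 11.35 on arrays labelled shIRF1, against 11.31, 11.51 and 11.45 on shCTRL CDDP arrays and 11.82, 11.47 and 11.87 on shCTRL arrays. Its untreated arrays were lower and its CDDP arrays higher on average on arrays labelled shIRF1, with a difference of 0.66 (SE 0.22, limma adjusted p = 0.417) and 1.04 on its other tested probe. POLE2, a subunit of DNA polymerase epsilon, had 0.78 (SE 0.25), UHRF1, which helps to maintain DNA methylation, 0.73 (SE 0.24), and RPA1, which binds single-stranded DNA, 0.59 (SE 0.22), with 0.06 and 0.45 on its other tested probes. DUT, which hydrolyses dUTP, was lowest with -0.49.

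Mitosis and spindle genes moved alike. Of 72 probes, 66 were positive (91.7%), with no call and a median of 0.35 (0.14 to 0.52 over the alternatives). At an unadjusted p under 0.05, 6 (8.33%) were positive and 0 negative, near the 8.8% of all probes in either direction. CDDP raised 15 and lowered 3 on arrays labelled shIRF1 (15.8% and 14.4% of all probes), and raised 7 and lowered 19 under shCTRL (19% and 17.4%). The kinesin gene KIF23 had log2 levels of 6.14, 6.15 and 6.47 on arrays labelled shIRF1 CDDP and 6.22, 6.56 and 6.18 on arrays labelled shIRF1, against 5.90, 5.38 and 5.04 on shCTRL CDDP arrays and 6.12, 6.89 and 6.21 on shCTRL arrays. KIF23 fell by 0.97 under shCTRL (limma adjusted p = 0.00632), with a response of -0.07 on arrays labelled shIRF1. Its difference was 0.90 (SE 0.34, limma adjusted p = 0.486), and 0.35 on its other tested probe. The detection p-value of the first probe reached 0.0325 on an array. The motor genes KIF20B and KIF11 had 1.05 (SE 0.41) and 0.93 (SE 0.39), with 0.39 on the other tested probe of KIF11. PTTG1, the securin gene, had 0.62 (SE 0.23) and 0.22 on its other tested probe.

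Among 44 probes of crosslink and excision repair genes, 35 were positive, with a median of 0.16. CHEK1, which encodes the checkpoint kinase activated at stalled forks, had log2 levels of 8.47, 8.66 and 8.71 on arrays labelled shIRF1 CDDP and 7.47, 7.78 and 7.87 on arrays labelled shIRF1, against 8.29, 8.09 and 8.20 on shCTRL CDDP arrays and 8.45, 8.38 and 8.22 on shCTRL arrays. CHEK1 rose by 0.91 on arrays labelled shIRF1 (limma adjusted p = 6.02e-04), with a response of -0.16 under shCTRL (limma adjusted p = 0.46). The difference of 1.06 (SE 0.22) had a limma adjusted p of 0.129. FANCE of the Fanconi anaemia core complex had 0.72 (SE 0.23) and BARD1, the partner of BRCA1, 0.98 (SE 0.39). DDB1, which recognises damage in nucleotide excision repair, had -0.51 on this probe (SE 0.22), and -0.13 and 0.11 on the others. The 20 probes of G1 cyclins, CDKs and inhibitors had a median of 0.13, led by the phosphatase gene CDC25A, which rose by 2.65 on arrays labelled shIRF1 and by 1.80 under shCTRL (difference 0.86, SE 0.30).

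Replication-dependent histone genes went against the other S phase genes. Of 13 probes for 10 genes, 11 were negative, against 48.7% of all probes, with a median of -0.44 (-0.73 to -0.25 over the alternatives). At an unadjusted p under 0.05, 5 (38.5%) were negative, against 4.63% of all probes. These 5 include both tested probes of H2AC18, so they stand for fewer genes. H2AC20 had log2 levels of 9.39, 9.86 and 9.13 on arrays labelled shIRF1 CDDP and 8.88, 8.52 and 8.52 on arrays labelled shIRF1, against 8.85, 9.36 and 9.02 on shCTRL CDDP arrays and 6.90, 7.19 and 6.86 on shCTRL arrays. H2AC20 was 1.65 higher on untreated arrays labelled shIRF1 and rose under both labels, by 0.82 there and by 2.09 under shCTRL. Its difference was -1.27 (SE 0.29, limma adjusted p = 0.197). H2AC18 and H2AC19 had -1.49 (SE 0.56) and -1.26 (SE 0.42), with -1.0 on the other tested probe of H2AC18. Histone genes of a cluster have near-identical copies, so a probe may read more than the gene it is named for.

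Damage genes linked to p53 had a median of -0.02 over 34 probes (-0.14 to 0.03 over the alternatives), with 17 positive and 17 negative. GADD45A, a growth arrest gene, rose by 3.56 on arrays labelled shIRF1 and by 2.71 under shCTRL (difference 0.86, SE 0.29; 0.59 on its other tested probe). CCNG2, an atypical cyclin gene, had -0.92 (SE 0.26), with a detection p-value of up to 0.0403 on an array, and -0.86 on its other tested probe. ZMAT3 had 0.79 (SE 0.30), with 0.03 and 0.52 on its other tested probes. The TRAIL receptor gene TNFRSF10B had -0.58 (SE 0.22), with -0.14 on its other tested probe. In the list of BCL2 family, death receptors and caspases, 26 of 38 probes were positive (median 0.18). BCL2L1, which encodes the survival protein BCL-XL, had log2 levels of 10.51, 10.97 and 11.03 on arrays labelled shIRF1 CDDP and 10.90, 11.10 and 11.26 on arrays labelled shIRF1, against 10.03, 10.16 and 10.11 on shCTRL CDDP arrays and 11.17, 11.25 and 11.39 on shCTRL arrays. The shCTRL CDDP arrays were below all others. BCL2L1 fell by 1.17 under shCTRL (limma adjusted p = 1.24e-04) and its response on arrays labelled shIRF1 was -0.25 (limma adjusted p = 0.303). The difference was 0.92 (SE 0.24, limma adjusted p = 0.288), and 1.41 on its other tested probe.

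Of 28 probes of the integrated stress and unfolded protein response, 15 rose and 2 fell on arrays labelled shIRF1 (15.8% and 14.4% of all probes), and 18 rose and 1 fell under shCTRL (19% and 17.4%). Their median difference was -0.19, and 7 were negative at an unadjusted p under 0.05 (25%, against 4.63% of all probes), with 1 positive and none called. Beside DDIT4 these were DNAJB9 (-0.80, SE 0.29) and XBP1 (-0.51 and -0.50 on 2 probes), both of the unfolded protein response, DDIT3 (-0.74), CEBPB (-0.52) and the lipoprotein receptor gene VLDLR (-0.78, SE 0.28). ATF5, a transcription factor of the same response, was the positive one (1.07, SE 0.32), and ATF4 had 0.20 and 0.29. Cholesterol synthesis genes had 16 of 21 probes negative (median -0.31), led by the sterol desaturase gene SC5D (-1.04, SE 0.37). MSMO1 had -0.58 (SE 0.24), with 0.07 and -0.52 on its other tested probes. DHCR7 had -0.62 (SE 0.26), with -0.46 on its other tested probe. Heat shock proteins had 17 of 26 probes positive (median 0.31), with the chaperone gene DNAJA1 at 0.49 (SE 0.19). HSP90AA1 was at 0.51 (SE 0.22), with 0.34 and 0.25 on its other tested probes. HSPE1 was at -0.80 (SE 0.38), with -0.07 on its other tested probe. None of these lists had a call.

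Genes that handle platinum and oxidants showed no common direction. The 14 probes of metallothioneins and platinum transporters had a median of 0.19, which was below 0 with a detection p under 0.01 and with probes detected on at least 3 arrays (down to -0.13). The efflux pump gene ABCC3 had log2 levels of 6.91, 7.46 and 7.60 on arrays labelled shIRF1 CDDP and 8.46, 8.64 and 9.20 on arrays labelled shIRF1, against 7.69, 8.64 and 8.42 on shCTRL CDDP arrays and 8.02, 8.31 and 8.52 on shCTRL arrays. ABCC3 fell by 1.44 on arrays labelled shIRF1 (limma adjusted p = 0.00112) and had a response of -0.03 under shCTRL. The difference was -1.41 (SE 0.38, limma adjusted p = 0.318). MT2A, a metallothionein gene, had 0.68 (SE 0.29). The 33 probes of glutathione and NRF2 genes had a median of -0.01 (-0.08 to 0.06 over the alternatives). Among them the thioredoxin reductase gene TXNRD1 had 1.02 (SE 0.37), with 0.52 on its other tested probe, and the malic enzyme gene ME1 -0.64 (SE 0.32). The 33 probes of hypoxia-response genes had a median of -0.07, with the collagen hydroxylase gene P4HA2 at 0.71 (SE 0.24, with 0.27 on its other tested probe). BNIP3L, of mitophagy, was at -0.77 (SE 0.31), with -0.56 on its other tested probe.

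Epithelial, mesenchymal and TGF-beta genes had a median near 0 over 37 probes (-0.03 to 0.12 over the alternatives) but many extreme members, 6 positive and 3 negative at an unadjusted p under 0.05 (24.3% of probes, against 8.8%). ID2, an inhibitor of helix-loop-helix factors, had log2 levels of 9.45, 10.04 and 9.19 on arrays labelled shIRF1 CDDP and 6.91, 7.33 and 7.33 on arrays labelled shIRF1, against 10.81, 10.65 and 9.84 on shCTRL CDDP arrays and 6.81, 6.14 and 6.33 on shCTRL arrays. ID2 rose under both labels, by 2.37 on arrays labelled shIRF1 and by 4.01 under shCTRL. The difference was -1.64 (SE 0.39, limma adjusted p = 0.218), and -1.40 on its other tested probe. TWIST2, THBS1 and SMAD3, a mesenchymal transcription factor, a matrix protein and a mediator of TGF-beta, fell under shCTRL by 1.96, 1.31 and 1.5. On arrays labelled shIRF1, TWIST2 fell by 0.78 and SMAD3 by 0.66, and THBS1 had a response of -0.45 that did not pass (limma adjusted p = 0.0768). Their differences were 1.17 (SE 0.31), 0.86 (SE 0.26) and 0.84 (SE 0.26).

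Small RNA probes showed sharp values in both directions. Of 57 probes of guide RNAs, spliceosomal RNAs and 7SK, 11 were negative (19.3%, against 4.63% of all probes) and 1 positive at an unadjusted p under 0.05. Their median was -0.16, and 0.03 with median scaling. SNORD3A, the U3 RNA of ribosomal RNA processing, had log2 levels of 8.58, 8.25 and 8.03 on arrays labelled shIRF1 CDDP and 9.10, 8.76 and 9.06 on arrays labelled shIRF1, against 8.07, 7.87 and 7.72 on shCTRL CDDP arrays and 6.81, 7.25 and 7.09 on shCTRL arrays. SNORD3A fell by 0.68 on arrays labelled shIRF1 and rose by 0.84 under shCTRL, a difference of -1.52 (SE 0.26, limma adjusted p = 0.0645). RNU4-2, a U4 spliceosomal RNA, was the positive one, with log2 levels of 9.42, 9.21 and 8.39 on arrays labelled shIRF1 CDDP and 6.12, 5.98 and 5.78 on arrays labelled shIRF1, against 6.81, 6.25 and 6.41 on shCTRL CDDP arrays and 5.27, 4.97 and 5.29 on shCTRL arrays. RNU4-2 rose by 3.04 on arrays labelled shIRF1 and by 1.31 under shCTRL (difference 1.73, SE 0.34, limma adjusted p = 0.0986). Its detection p-value reached 0.0442 on an array, close to the limit for being taken. SCARNA13 had -1.43 (SE 0.31) and SNORD3C -1.14 (SE 0.25). The U1, U3 and U4 genes have near-identical copies, so their probes cannot be assigned to a copy. The 305 probes of zinc finger ZNF genes had a median of -0.06 (0.05 with median scaling). HEXIM1, an inhibitor of the elongation kinase P-TEFb, had -1.19 (SE 0.29, limma adjusted p = 0.228), and the 33 probes of aminoacyl-tRNA synthetases had a median of 0.04, with the tryptophan enzyme gene WARS1 at -0.79 (SE 0.22) on the probe with the smaller p.

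The probes that responded most were examined without choosing them by the difference. In this balanced design the mean of the responses is independent of their difference, so probes were taken by a called mean response (6390 probes, 48.1%, with 25.8% higher and 22.3% lower) of at least 2-fold. Of 1465 such probes, 949 (64.8%) responded less on arrays labelled shIRF1 than under shCTRL, against 57.3% of all probes. Among 673 rises the median difference was -0.14, with a median response of 1.25 on arrays labelled shIRF1 and 1.37 under shCTRL. Among 792 falls it was 0.17, with -1.29 and -1.43 in the same order. These medians were -0.05 and 0.06 without shIRF1 CDDP array 3, -0.07 and 0.12 without shIRF1 array 2, -0.16 and 0.28 without shCTRL CDDP array 3, and -0.10 and 0.31 with median scaling. TSC22D3 was the single call among them. The share without shIRF1 CDDP array 3 was 55%, and without shCTRL CDDP array 3 it was 70.2%. With an array left out the design is not balanced, so the mean response is no longer independent of the difference. The share of all probes was not taken in those fits.

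The gap was also read array by array. The median rise over its own untreated group was 1.30, 1.38 and 1.13 on the arrays labelled shIRF1 CDDP, against 1.38, 1.48 and 1.35 on the shCTRL CDDP arrays. The median fall was -1.43, -1.40 and -1.11 on arrays labelled shIRF1 CDDP, against -1.54, -1.55 and -1.30 on shCTRL CDDP arrays. The groups overlapped in both, and array 3 had the weakest response under each label. Taken by replicate number, each array labelled shIRF1 CDDP had a smaller rise and a smaller fall than the shCTRL CDDP array of its number. The labels do not state that the numbers pair the samples.

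**Figure D4:**
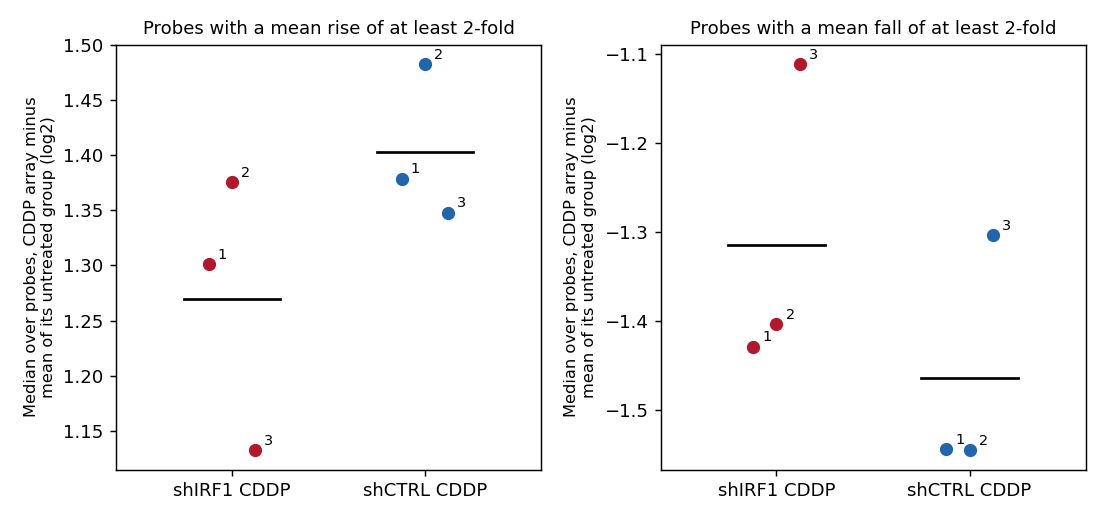
Each point is 1 CDDP array, as the median over the 673 probes with a mean rise of at least 2-fold (left) or the 792 with such a fall (right) of its log2 signal minus the mean of its untreated group. Bars give group means, small numbers the replicate, and axes do not start at 0; the shIRF1 CDDP arrays lie nearer to 0 on average but overlap with the shCTRL CDDP arrays.

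Rises of at least 8-fold were 15 probes, of which 11 were smaller on arrays labelled shIRF1 (median difference -0.52). They include the stress factor ATF3 (5.12 on arrays labelled shIRF1 and 5.35 under shCTRL), the neutrophil chemokine CXCL8 (4.52 and 4.49 on one probe, 3.90 and 4.30 on the other), the cell cycle inhibitor CDKN1A (3.99 and 4.51), the death gene PMAIP1 (3.38 and 3.90, 3.01 and 3.66) and DDIT3 (2.98 and 3.72), in the same order. None of these 15 differences passed. Of the 10 falls of at least 8-fold, 8 were larger on arrays labelled shIRF1 (median difference -0.10), among them CUX1 (-3.85 on arrays labelled shIRF1 and -2.93 under shCTRL). None of these differences passed, and some were small against their SE, such as -0.02 for PTPRK (SE 0.43) and for MGAT5 (SE 0.24). The detection p-value reached 0.0364 on an array for CUX1. Probes that fell below detection on any array were not tested. Whether the smaller responses on arrays labelled shIRF1 extend to the deepest falls thus cannot be told from these probes.

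The difference moved with the length of the gene. Named probes were split into 4 classes of equal size by the span of their gene in the RefSeq annotation. In genes of up to 11.2 kb the median difference was -0.07, with 7.36% of probes negative and 2.43% positive at an unadjusted p under 0.05. In genes over 60.3 kb it was 0.12, with 2.94% negative and 7.98% positive. The classes between had -0.02 and 0.04. The median CDDP response of the longest class was -0.41 on arrays labelled shIRF1 and -0.54 under shCTRL, and that of the shortest 0.19 and 0.27 in the same order. The gap of 0.19 between the longest and the shortest class was 0.13 to 0.31 over the alternatives. Per array, the median of the longest class against its own untreated group was -0.50, -0.43 and -0.33 on arrays labelled shIRF1 CDDP. On shCTRL CDDP arrays it was -0.55, -0.60 and -0.46, so the groups overlapped. Taken by replicate number, each array labelled shIRF1 CDDP had the smaller fall.

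A list of 10 tested genes known for fragile sites or great length had 10 of 12 probes negative, with a median of -0.35, although the longest of 10 length classes had the highest median (0.15). The list median was -0.45 to -0.05 over the alternatives, nearest to 0 with probes detected on at least 3 arrays, and -0.19 without shCTRL CDDP array 3. CDDP lowered 12 of the probes on arrays labelled shIRF1 (14.4% of all probes) and 11 under shCTRL (17.4%), with median responses of -2.13 and -1.87 in the same order. LPP, which encodes a focal adhesion protein, had log2 levels of 7.70, 7.86 and 7.39 on arrays labelled shIRF1 CDDP and 9.94, 9.79 and 10.15 on arrays labelled shIRF1, against 7.42, 8.03 and 8.01 on shCTRL CDDP arrays and 9.44, 9.40 and 9.67 on shCTRL arrays. LPP fell under both labels, and its difference was -0.63 (SE 0.28, limma adjusted p = 0.542), and -0.13 on its other tested probe. EXOC4 of the exocyst had -0.35 (SE 0.25) and LRBA -0.49 (SE 0.29), with -0.35 on the other tested probe of LRBA.

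**Figure D5:**
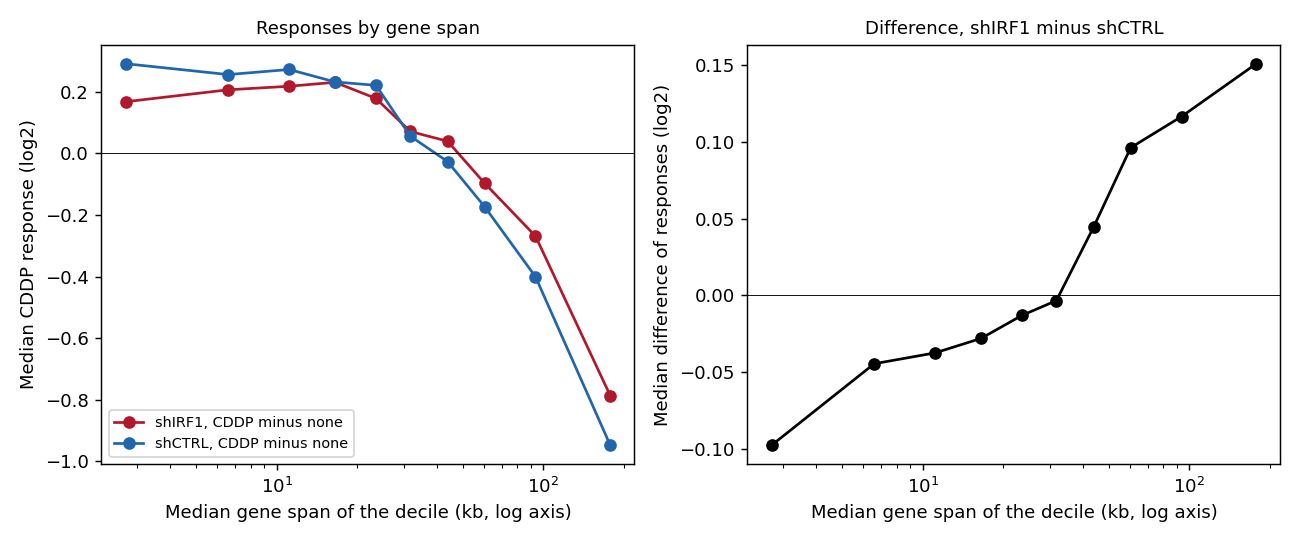
Probes of named genes in 10 classes by gene span (x axis, median span in kb, log axis), with the median CDDP response on arrays labelled shIRF1 and under shCTRL (left, log2) and the median difference of responses (right, log2). The difference goes from -0.10 in the shortest class to 0.15 in the longest.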

How the data were processed

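RNA of 12 SK-OV-3 samples, 1 Illumina bead array each, was labelled as biotinylated cRNA, per the labels' protocols, and processed with BeadStudio 2, per the submitters' processing notes. The deposited non-normalized table holds, per the file headers, an intensity for each probe (a mean bead signal, linear, with no scaling between arrays). Beside it stands, per the file headers, the detection p-value of each probe as deposited. The series matrix of the authors gives another intensity per probe. Within an array it was a linear function of the signal (r = 1, slopes 1.37 to 2.66, intercepts -116 to -14.2), so its scale is linear, but how its factors were set is unknown. Its medians were 123, 119 and 116 for shIRF1 CDDP, 116, 117 and 119 for shIRF1, 126, 123 and 132 for shCTRL CDDP and 122, 120 and 119 for shCTRL. It served as an alternative.

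From the non-normalized table, signals were background-corrected, given an offset of 16, quantile-normalized and put on the log2 scale with neqc of limma 3.58.1 (R 4.3.3). Linear models with 1 mean per group over all 12 arrays and empirical Bayes moderation gave the contrasts. Tests were two-sided, with p-values adjusted by Benjamini-Hochberg over the 13298 probes detected (p under 0.05) on all 12 arrays, and called at an adjusted p under 0.05. The steps were tested on simulated data. No arrays held identical values. The number of arrays limits the precision.

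Of 47313 probes, 30109 had 1 gene symbol, 8 had several and 17196 had none in the platform annotation, and 30070 symbols were matched to current RefSeq names. Gene spans and promoters come from RefSeq GRCh38.p14. The probes, gene lists and tests were chosen with earlier results of these data known. Named genes were IRF1, called probes, the probes with the smallest p up to 10 in each direction, up to 4 members of each list (calls first, then smallest p), and up to 6 probes with opposite responses. Other list members and the largest responses were named after their values were seen. Alternatives were the background correction, offset, scaling, series matrix, detection limit, 1 probe per gene, variance trend, array weights, a replicate block and leaving out arrays.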

Additional observations from a re-analysis of the deposited data

Results flagged for a closer look

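For 7 probes the test of the difference between the CDDP responses passed its threshold in the main fit (limma, Benjamini-Hochberg over 13298 probes). In that fit their CDDP responses differed between the shRNA labels. The difference was -2.09 for IFIT2 (limma adjusted p = 0.0161), -2.0 for AKAP19 (0.0161), -1.88 for IER5L (0.0161), -1.82 for the unnamed probe ILMN_3240626 (0.012) and -1.66 for TSC22D3 (0.0161). It was 1.52 for the unnamed probe ILMN_1673113 (0.0225) and 1.36 for F2R (0.0237). Each of the 5 negative probes stood higher over its untreated mean on every shCTRL CDDP array than on any array labelled shIRF1 CDDP. The 2 positive probes stood above their untreated mean on all 3 arrays labelled shIRF1 CDDP and below it on all 3 shCTRL CDDP arrays. These are the same values that gave the calls, so they describe the calls and add no support to them. No probe passed with median scaling or with both arrays of low weight left out. F2R and ILMN_1673113 each kept the call in 1 of the 12 fits that left out 1 array. The other tested probe of F2R gave 0.12. No cause of these differences was tested.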

How the results depend on the processing

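The 7 calls of the difference depended on the processing. There were 11 without background correction, 12 with an offset of 50, 12 from the series matrix, 13 with a variance trend and robust moderation, 13 with array weights and 18 with probes detected on at least 3 arrays, against 0 with median scaling (369 at an unadjusted limma p under 0.05). With both arrays of low weight left out (shIRF1 CDDP array 1 and shCTRL CDDP array 3, chosen after seeing the data) there were 0 (1417 at an unadjusted limma p under 0.05). Leaving out 1 array gave 0 to 10. All 7 probes kept their direction throughout. Among list members, 2 calls became 4 without background correction, with an offset of 50, from the series matrix, with a variance trend and with array weights, 1 with a detection p under 0.01, 0 with median scaling or without both arrays of low weight, and 0 to 3 with 1 array left out. Median scaling left 1856 probes called on arrays labelled shIRF1, 2672 under shCTRL and 4168 in the mean response. The share of responsive probes with a smaller response on arrays labelled shIRF1 (64.8%) was 69.9% with median scaling, 68.2% with array weights, 70.7% without both arrays of low weight, and 55% to 70.2% with 1 array left out. The gap between long and short genes (0.19) was 0.31 without both arrays of low weight and 0.13 to 0.25 with 1 array left out. IRF1 did not pass under any alternative. The causes of these changes were not tested. With the replicate number as a block 11 probes were called, among them all 7. At an unadjusted limma p under 0.05 there were 1453 probes with the block, against 1170 without it. Same-numbered arrays correlated at -0.04 to 0.31 in their deviations from group means, over 0.1 in 13 of 18 pairs. Of 12 arrays, 10 correlated best with their own number, so arrays of a number shared some of their deviations. The labels do not say what the numbers stand for, and the main fit did not use them. With 3 arrays a group the median SE was 0.28, and differences well above it could go uncalled. The smallest called difference was 1.36 (F2R), and -2.19 for DDIT4 (SE 0.41) did not pass.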

Other observations

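Probes of a gene did not always give the same difference, which bears on how a single probe is read. RPS29 had -1.83 on ILMN_2298818 and -0.10, -0.07 and 0.15 on its other 3 probes detected on all arrays. F2R had 1.36 on the called probe and 0.12 on the other. In contrast, BCL2L1 had 0.92 and 1.41, GADD45A 0.86 and 0.59, ID2 -1.64 and -1.40, and the 3 probes of SGK1 lay between 0.93 and 1.25.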
